A study of Mus musculus with 20 samples.

Results

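Splenic B cells that lack the kinase TAK1 were compared with wild type B cells after 3 h of B cell receptor stimulation. The comparison takes 4 of the 20 arrays of a time course, chosen by their labels alone: 2 arrays of TAK1-deleted cells (mb-1/TAK1f/f) and 2 arrays of wild type cells (mb-1/TAK1+/+), both given anti-IgM at 10 µg/ml for 3 h. The other 16 arrays are the same 2 genotypes without stimulation (0 h) or after 1, 6 or 24 h, 2 arrays a group, and enter as the estimate of spread and as comparisons. All mice were C57BL/6 and 8 to 12 weeks old, and the labels give a mix of genders for every group. The B cells were spleen cells left after CD43-bearing cells had been removed with magnetic beads, cultured in RPMI with serum. The loxP-flanked TAK1 alleles are deleted through mb-1, the promoter of the Cd79a gene, which is active in the B lineage from its early stages, so the cells developed without the kinase and did not lose it during the culture. The labels do not say whether the arrays of a group came from separate mice, from pools or from 1 preparation, so the p-values measure only the spread between these arrays.

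TAK1, encoded by Map3k7, is activated when the B cell receptor is cross-linked. It phosphorylates the IκB kinases, which release NF-κB dimers from their IκB inhibitors, and the kinases upstream of JNK and p38. Among the genes that NF-κB drives in B cells are its own inhibitors (Nfkbia, Tnfaip3), survival genes (Bcl2l1) and genes of growth and entry into the cell cycle (Myc, Ccnd2), and mature B cells given anti-IgM enlarge, survive and divide through them.

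After 3 h, TAK1-deleted B cells held less RNA than wild type cells for the survival genes Bcl2l1 and Cflar, for cyclin D2 (Ccnd2), for the NF-κB inhibitor Tnfaip3, for the cytokine Il10 and for the activation molecules Icam1, Slamf1 and Il2ra, with differences between -2.14 and -1.16 on the log2 scale. Rel, Irf4, Myc, Cd83 and Cd86 and the genes of ribosome biogenesis were induced in both genotypes and were not called between them. Erythroid markers were higher and NK and T cell markers lower in the TAK1-deleted arrays, and these differences were present at 0 h.

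Values are log2 expression of the probe set chosen for each of 11968 genes. A difference is TAK1-deleted minus wild type on that scale, with the standard error of the fit, and a gene was called at an adjusted p below 0.05 (limma over all 20 arrays, Benjamini-Hochberg over all genes). This fit does not use the pairing of arrays by replicate number. At 3 h 324 genes (2.71%) were called, 120 higher in TAK1-deleted cells (1.00%) and 204 lower (1.70%). The median difference of the called genes was 0.75 for those higher and -0.86 for those lower, against 0.01 over all genes tested. A difference larger than 1 was found for 27 of the higher and 68 of the lower genes. Of all genes, 18.4% had both TAK1-deleted arrays above both wild type arrays and 14.9% had both below, and all 324 called genes were among these. The call count was 227 without TAK1-deleted replicate 1, 169 without TAK1-deleted replicate 2, 134 without wild type replicate 1 and 154 without wild type replicate 2, and 92 genes were called in all 4 of these fits. With the replicate number as a block, which leaves every difference as it is and changes its error, 995 genes were called (8.31%), 457 higher and 538 lower (3.82% and 4.50%), and with the 4 arrays fitted alone 46. In simulated data with noise drawn independently for each array, 80% of genes with a difference of 1 and 25% of those with 0.5 were recovered. In the same data 7 unchanged genes were called. Deviations shared by arrays of the same replicate number were not simulated, so these shares may not hold for the real arrays.

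The Map3k7 probe set read 10.76 and 10.61 in the TAK1-deleted arrays, against 10.71 and 10.52 in the wild type arrays (0.07 ± 0.14, adjusted p = 1). Where it lies relative to the deleted part of the gene is not given in the sources used here, so it does not check the labels. Y-linked genes did differ: Eif2s3y read 4.82 and 4.68 in the TAK1-deleted arrays, against 8.98 and 8.32 in the wild type arrays, and Kdm5d (-2.78 ± 0.20) and Uty (-2.60 ± 0.23) were lower too, so the mix of sexes was not the same in both genotypes. For every difference given here, an effect of the deletion and one of sex cannot be told apart. Markers shared by all B cells (the pan B list) averaged 12.03 and 11.73 in the TAK1-deleted arrays, against 11.87 and 11.66 in the wild type arrays, and 1 of 12 was called, Fcrla (0.71 ± 0.11), an Fc receptor-like protein of B cells (2 higher and 1 lower with the replicate block). Among markers of cells other than B cells, the erythroid, NK cell and T cell lists had the medians furthest from 0. These were 0.98, -1.08 and -0.62 at 3 h and 1.54, -1.12 and -0.78 at 0 h. Erythroid markers averaged 9.09 and 8.80 in the TAK1-deleted arrays, against 7.66 and 7.80 in the wild type arrays, with 11 of 13 tested called higher (12 with the replicate block), among them Rhag (2.75 ± 0.31), Car1 (2.01 ± 0.21) and the anion exchanger Slc4a1 (1.98 ± 0.22). NK cell markers averaged 7.59 and 7.37 in the TAK1-deleted arrays, against 8.34 and 8.59 in the wild type arrays, with 8 of 10 called lower (10 with the block). T cell markers averaged 9.17 and 8.76 in the TAK1-deleted arrays, against 9.63 and 9.59 in the wild type arrays, with 4 of 14 called lower and 12 of 14 with the block. The granule genes of immature neutrophils Mpo (1.36 ± 0.15), Elane, Ctsg and Prtn3 were higher, 4 of 16 on that list, with 7 higher and 4 lower with the block. Of the other lists, 1 of 18 monocyte and macrophage markers was lower (median -0.07; 1 higher and 3 lower with the block), 1 of 10 dendritic cell markers was higher (median 0.07; 2 higher and 1 lower with the block), 2 of 8 plasma cell markers were lower (median -0.35; 4 with the block), and no platelet marker of 6 was called in either fit. At 0 h, 4 of the 16 neutrophil markers were higher and 1 lower (median 0.23), and 4 of the 8 plasma cell markers were lower (median -0.65). Of all genes, 1.50% were higher and 0.819% lower at 0 h. At 3 h 1.00% were higher and 1.70% lower, and 3.82% and 4.50% with the block. In these bulk samples fewer cells of a type and less RNA per cell cannot be told apart. RMA values have no 0, so absence of a marker cannot be read from them.

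Of the 11 erythroid calls, 7 without TAK1-deleted replicate 1, 9 without TAK1-deleted replicate 2, 6 without wild type replicate 1 and 8 without wild type replicate 2 held. Of the 8 NK cell calls, 6 without TAK1-deleted replicate 1, 0 without TAK1-deleted replicate 2, 4 without wild type replicate 1 and 1 without wild type replicate 2 held, and of the 4 T cell calls, 3 without TAK1-deleted replicate 1, 1 without TAK1-deleted replicate 2, 1 without wild type replicate 1 and 1 without wild type replicate 2. These fits do not use the pairing by replicate number. Leaving out 1 array also leaves the numbers unequal between the genotypes, so a shift shared by same-numbered arrays enters the difference. The plot of marker levels shows the marker lists side by side.

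**Figure D1:**
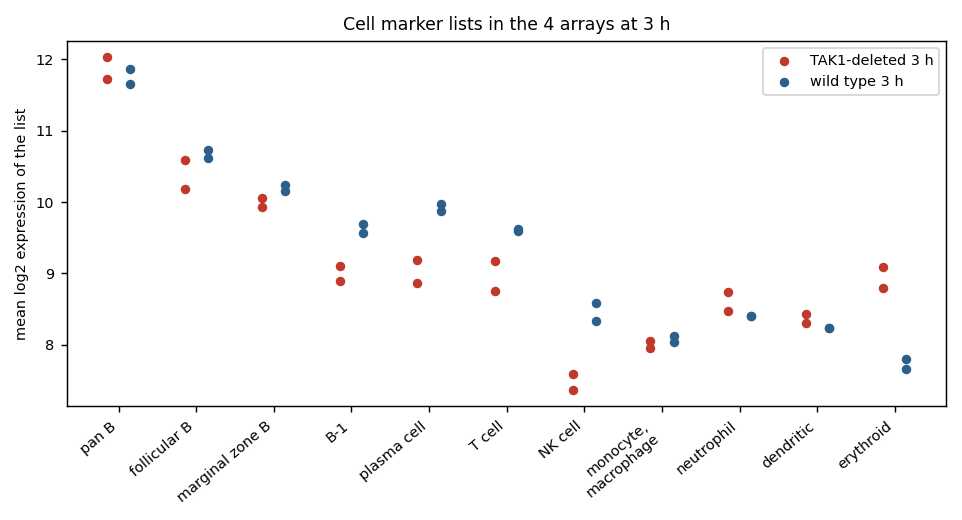
Mean log2 expression of the tested members of 11 marker lists (horizontal axis) in each of the 4 arrays at 3 h (points), TAK1-deleted left of wild type. The erythroid list averaged 9.09 and 8.80 in TAK1-deleted arrays, above 7.66 and 7.80 in wild type arrays, and the NK cell list lies below wild type in both TAK1-deleted arrays.

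Of the NF-κB subunits and their inhibitors, the A20 gene Tnfaip3 stood furthest below wild type. Of 14 genes tested on this list, 2 were lower in TAK1-deleted cells (1.70% of all genes were lower), 0 were higher, and the median difference was -0.19, against 0.01 over all genes. Tnfaip3 encodes A20, the deubiquitinase that shuts NF-κB signalling off, and read 10.40 and 10.27 in the TAK1-deleted arrays, against 11.85 and 11.76 in the wild type arrays. The groups lay far apart, a difference of -1.47 ± 0.16 (2.77-fold lower, adjusted p = 6.1e-05). Nfkbiz, an IκB protein of the nucleus, read 10.34 and 10.07 in the TAK1-deleted arrays, against 11.25 and 10.88 in the wild type arrays (-0.86 ± 0.20, adjusted p = 0.031). Nfkbia, the IκBα inhibitor itself, read 11.71 and 11.79 in the TAK1-deleted arrays, against 12.01 and 12.17 in the wild type arrays. Its difference of -0.34 ± 0.10 missed the threshold (adjusted p = 0.085) and passed it with the replicate block (adjusted p = 0.0084), as did that of Bcl3 (-0.54 ± 0.26, adjusted p = 0.53; adjusted p = 0.017 with the block). No subunit tested was called: Rel -0.10 ± 0.10, Rela -0.08 ± 0.21, Relb -0.01 ± 0.16 and Nfkb2 -0.20 ± 0.14. The inhibitors Nfkbib (-0.15 ± 0.13), Nfkbid (-0.26 ± 0.10) and Nfkbie (-0.21 ± 0.12), the deubiquitinase Cyld (-0.18 ± 0.18) and the A20 partners Tnip1 (-0.08 ± 0.13) and Tnip2 (0.25 ± 0.22) were not called either. Nfkb1 was not analysed here. The call was lost for Nfkbiz without TAK1-deleted replicate 1 (adjusted p = 0.054) and Nfkbiz without TAK1-deleted replicate 2 (adjusted p = 0.25). It was also lost for Nfkbiz without wild type replicate 1 (adjusted p = 0.36) and Nfkbiz without wild type replicate 2 (adjusted p = 0.05).

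Genes known as NF-κB targets spread from well below the wild type level to slightly above it. Of 34 tested, 14 were lower in TAK1-deleted cells and 0 higher, against 1.70% and 1.00% of all genes. The median difference was -0.46, and 31 of the 34 differences were below 0. Il10, the anti-inflammatory cytokine, had the largest difference of the list: 6.73 and 6.18 in the TAK1-deleted arrays, against 8.40 and 8.79 in the wild type arrays, or -2.14 ± 0.24 (4.41-fold lower, adjusted p = 8.5e-05). Cyclin D2, which drives cells from G1 towards S phase, was next. Ccnd2 read 10.85 and 10.17 in the TAK1-deleted arrays, against 12.49 and 12.27 in the wild type arrays, with both wild type arrays above both TAK1-deleted arrays (-1.87 ± 0.17, 3.65-fold lower, adjusted p = 1.3e-05). The adhesion molecule Icam1 read 9.73 and 9.85 in the TAK1-deleted arrays, against 10.94 and 11.04 in the wild type arrays, each pair within a narrow range (-1.20 ± 0.11, adjusted p = 1.8e-05). Gadd45b (-0.88 ± 0.11), the transcription factor Irf1 (-0.77 ± 0.12), the chemokine Ccl5 (-0.80 ± 0.12), the adaptor Traf1 (-0.84 ± 0.18), the kinase Map3k8 (-0.62 ± 0.15) and the sugar transporter Slc2a6 (-0.63 ± 0.12) were lower as well. The remaining called members, Bcl2l1, Cflar, Fas, Cd40 and Stat5a, are described with their families. Of the 14 calls, 11 without TAK1-deleted replicate 1, 10 without TAK1-deleted replicate 2, 8 without wild type replicate 1 and 12 without wild type replicate 2 held.

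Other genes of the same list were not called. Myc, which drives growth and metabolism, read 13.51 and 13.26 in the TAK1-deleted arrays, against 13.73 and 13.42 in the wild type arrays (-0.19 ± 0.15, adjusted p = 0.94). Irf4, a transcription factor of activated B cells, read 13.01 and 12.90 in the TAK1-deleted arrays, against 13.22 and 13.07 in the wild type arrays (-0.19 ± 0.14, adjusted p = 0.87). Without a call too were Cd83 (-0.18 ± 0.10), Cd86 (-0.02 ± 0.17), Ccl3 (-0.20 ± 0.21), Ccl4 (0.05 ± 0.16), Ccr7 (-0.15 ± 0.12), Tnf (-0.33 ± 0.19), Lta (-0.14 ± 0.20), Ltb (-0.09 ± 0.12), Birc2 (-0.40 ± 0.19), Ier3 (-0.09 ± 0.17), Sdc4 (0.20 ± 0.11), Junb (0.14 ± 0.17) and Tnfrsf1b (-0.20 ± 0.12). A further 5 members were called lower only with the replicate block: the costimulator Cd80 (-0.83 ± 0.29; adjusted p = 1.5e-04 with the block), the chemokine Ccl22 (-0.52 ± 0.16; adjusted p = 0.013), the cytokine subunit Ebi3 (-0.60 ± 0.16; adjusted p = 0.001), the ubiquitin ligase Birc3 (-0.33 ± 0.11; adjusted p = 0.016) and Plek (-0.28 ± 0.08; adjusted p = 0.011). Their adjusted p without it were 0.24, 0.12, 0.06, 0.17 and 0.085. With the block 4.50% of all genes were lower. Among the called members of the list, Ccl5 is also a product of T and NK cells, whose markers were lower in the TAK1-deleted arrays, and the part of these cells in its difference was not tested. Ccl5 was lower at 0 h as well (-0.95 ± 0.12, adjusted p = 1.6e-04), and its changes over 3 h, 0.13 in TAK1-deleted cells and -0.02 in wild type cells, were not called. Calls were lost for Map3k8 without TAK1-deleted replicate 1 (adjusted p = 0.065) and Traf1, Map3k8 and Slc2a6 without TAK1-deleted replicate 2 (adjusted p = 0.081 to 0.26). They were lost as well for Traf1, Map3k8 and Slc2a6 without wild type replicate 1 (adjusted p = 0.1 to 0.44).

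**Figure D2:**
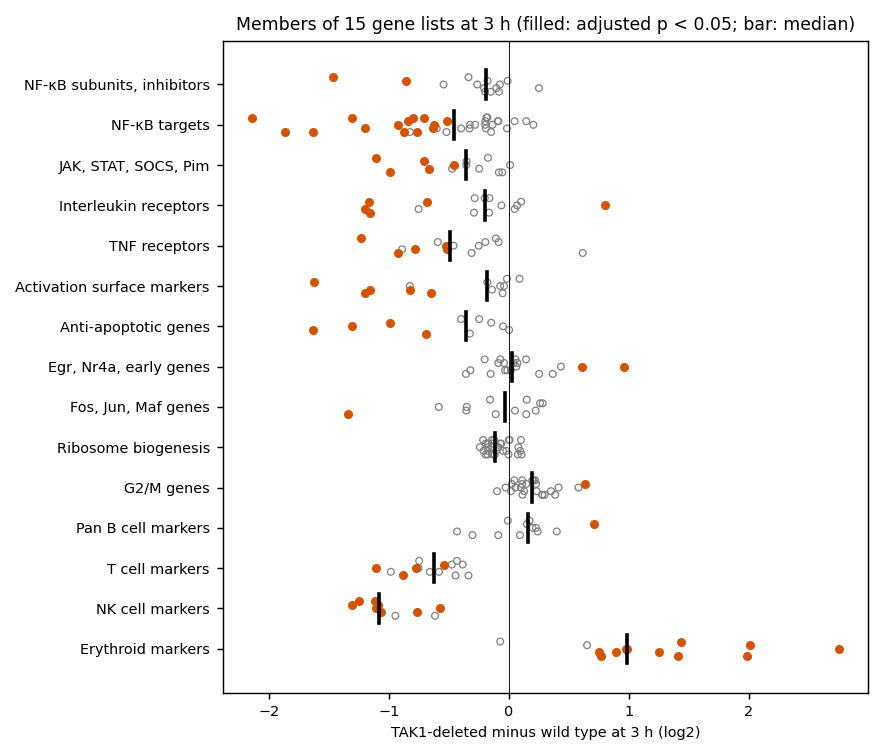
Difference between TAK1-deleted and wild type cells at 3 h (horizontal axis, log2) for each tested member of 15 gene lists (rows). Filled points were called at an adjusted p below 0.05, open points were not, and bars mark the list medians. The 14 called NF-κB targets lie to the left of 0, as do the NK cell markers (median -1.08), and 12 of the 13 erythroid markers lie to the right (list median 0.98).

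The changes from 0 h differed from gene to gene. Over 3 h of anti-IgM Tnfaip3 changed by 0.96 in TAK1-deleted cells and 2.28 in wild type cells, Il10 by 0.65 in TAK1-deleted cells and 2.69 in wild type cells, and Gadd45b by 1.56 in TAK1-deleted cells and 2.11 in wild type cells, and each of these 6 rises was called (19.6% of all genes rose in TAK1-deleted cells and 20.9% in wild type cells). Ccnd2 moved in opposite directions, by -0.52 in TAK1-deleted cells and 0.83 in wild type cells, and Icam1 did too, by -0.48 in TAK1-deleted cells and 0.48 in wild type cells, all 4 changes being called (22.1% of all genes fell in TAK1-deleted cells and 23.2% in wild type cells). Rel (0.79 in TAK1-deleted cells and 0.81 in wild type cells), Nfkbid (2.12 in TAK1-deleted cells and 2.16 in wild type cells), Irf4 (2.10 in TAK1-deleted cells and 1.98 in wild type cells), Cd83 (1.78 in TAK1-deleted cells and 1.64 in wild type cells) and Ccl4 (3.05 in TAK1-deleted cells and 2.95 in wild type cells) rose in both genotypes. Myc rose in both as well, by 1.60 in TAK1-deleted cells and 2.02 in wild type cells. Both changes of a gene share no arrays with each other, but each shares its 3 h arrays with the difference at 3 h.

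**Figure D3:**
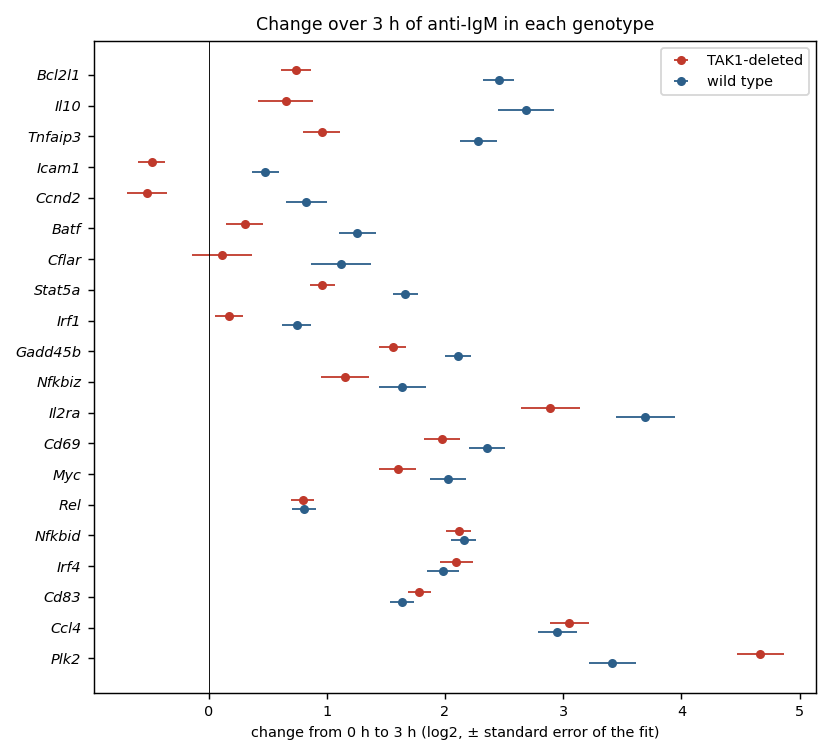
Change in log2 expression from 0 h to 3 h for 20 genes (rows) in TAK1-deleted cells (upper point of each pair) and wild type cells (lower point), with the standard error of the fit as bars. Bcl2l1 changed by 0.74 in TAK1-deleted cells and 2.45 in wild type cells, while the points of Rel lie at 0.79 and 0.81.

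Promoter windows were set beside these calls because the list members share a regulator. RefSeq windows of GRCm38.p6 run from 250 bases before to 50 after a start site, and the 10-base κB consensus was searched on both strands. The consensus was found in 6.27% of the 9586 tested genes with a window and in 4.51% of all 32851 windows. Of the genes called lower at 3 h, 16 of 161 with a window held it (9.94%), and of those called higher 9 of 96 (9.38%). Within both NF-κB lists, 4 of 10 called lower and 12 of 26 not called (46.2%) held it. A match is a description of the letters and not of binding. The 4 windows below, 2 of genes called lower (Tnfaip3 and Irf1) and 2 of genes not called (Nfkbia and Nfkb2), are printed 5′ to 3′ on the gene's strand with the matches in capitals; where matches overlap, or a stretch reads as a match on both strands, they form 1 capital stretch.
Tnfaip3, chr10:19015361-19015660, minus strand: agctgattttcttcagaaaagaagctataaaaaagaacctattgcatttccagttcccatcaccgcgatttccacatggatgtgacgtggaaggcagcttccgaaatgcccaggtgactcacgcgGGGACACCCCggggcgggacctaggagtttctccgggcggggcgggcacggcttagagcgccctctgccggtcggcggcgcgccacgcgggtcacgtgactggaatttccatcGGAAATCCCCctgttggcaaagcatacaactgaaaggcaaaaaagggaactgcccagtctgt
Irf1, chr11:53769764-53770063, plus strand: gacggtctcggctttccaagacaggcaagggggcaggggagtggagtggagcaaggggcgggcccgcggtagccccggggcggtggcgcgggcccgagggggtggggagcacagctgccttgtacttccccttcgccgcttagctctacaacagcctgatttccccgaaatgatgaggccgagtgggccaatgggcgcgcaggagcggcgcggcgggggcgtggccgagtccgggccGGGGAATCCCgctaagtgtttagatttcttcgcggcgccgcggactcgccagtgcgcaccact
Nfkbia, chr12:55492598-55492897, minus strand: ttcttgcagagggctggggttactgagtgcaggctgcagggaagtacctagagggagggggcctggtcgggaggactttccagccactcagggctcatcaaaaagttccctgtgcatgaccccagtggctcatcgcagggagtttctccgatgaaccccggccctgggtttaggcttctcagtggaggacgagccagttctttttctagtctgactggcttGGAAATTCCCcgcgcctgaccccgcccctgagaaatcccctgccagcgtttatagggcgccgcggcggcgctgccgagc
Nfkb2, chr19:46304487-46304786, plus strand: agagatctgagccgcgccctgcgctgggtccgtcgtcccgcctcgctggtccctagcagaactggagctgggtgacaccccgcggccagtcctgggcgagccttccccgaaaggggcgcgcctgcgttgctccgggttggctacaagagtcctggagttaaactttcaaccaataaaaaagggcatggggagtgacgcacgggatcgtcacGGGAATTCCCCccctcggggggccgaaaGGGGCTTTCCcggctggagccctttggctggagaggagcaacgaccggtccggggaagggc
The stretches begin 13 bases before the start site in Irf1 and 29 in Nfkbia, and no difference between called and uncalled genes was read from them.

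Survival genes were lower at several points of the pathway. Of 10 anti-apoptotic genes tested, 4 were lower in TAK1-deleted cells and 0 higher, against 1.70% and 1.00% of all genes (median -0.36). With the block 5 were lower, against 4.50% of all genes. Bcl2l1, whose long product Bcl-xL blocks the mitochondrial pathway of apoptosis, read 8.08 and 8.36 in the TAK1-deleted arrays, against 9.88 and 9.83 in the wild type arrays. Every wild type array exceeded every TAK1-deleted array by more than 1, and the difference was -1.63 ± 0.13 (3.1-fold lower, adjusted p = 2.9e-06). Cflar encodes c-FLIP, which restrains caspase-8, and read 9.51 and 9.17 in the TAK1-deleted arrays, against 10.91 and 10.39 in the wild type arrays (-1.31 ± 0.25, adjusted p = 0.0084). The kinase Pim1 read 11.82 and 11.67 in the TAK1-deleted arrays, against 12.78 and 12.68 in the wild type arrays (-0.99 ± 0.15, adjusted p = 0.0011). Bcl2 read 10.27 and 9.79 in the TAK1-deleted arrays, against 10.86 and 10.59 in the wild type arrays (-0.69 ± 0.15, adjusted p = 0.02) and, unlike Bcl2l1, fell over 3 h in both genotypes, with changes of -2.19 in TAK1-deleted cells and -1.57 in wild type cells. The tested members of the list without a call lay between -0.40 (Birc2) and 0.00 (Xiap). The Bcl2a1 genes, near-identical copies, were not analysed here. Of 14 pro-apoptotic genes, the BH3-only gene Bmf was higher (0.55 ± 0.11, adjusted p = 0.011) and the death receptor Fas lower (-0.92 ± 0.19, adjusted p = 0.012), with 1 higher and 2 lower with the block. Fas was lower at 0 h too (-0.82 ± 0.19, adjusted p = 0.03). Of the 4 anti-apoptotic calls, 4 without TAK1-deleted replicate 1, 2 without TAK1-deleted replicate 2, 2 without wild type replicate 1 and 4 without wild type replicate 2 held. Leaving out an array ended the call for Fas without TAK1-deleted replicate 1 (adjusted p = 0.12) and Cflar, Bcl2 and Bmf without TAK1-deleted replicate 2 (adjusted p = 0.1 to 0.26). The same held for Cflar, Bcl2, Bmf and Fas without wild type replicate 1 (adjusted p = 0.076 to 0.26) and Fas without wild type replicate 2 (adjusted p = 0.12).

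The receptors for IL-2 and related cytokines signal through JAK kinases to STAT5, whose targets include Cish, Pim1 and Il2ra. Of 13 JAK, STAT, SOCS and Pim genes tested, 5 were lower in TAK1-deleted cells and 0 higher, against 1.70% and 1.00% of all genes (median -0.36). With the block 6 were lower, against 4.50% of all genes. Stat5a read 11.23 and 11.14 in the TAK1-deleted arrays, against 11.89 and 11.90 in the wild type arrays, tightly grouped in both genotypes (-0.71 ± 0.11, adjusted p = 0.0013). Its rise from 0 h was 0.96 in TAK1-deleted cells and 1.66 in wild type cells. Cish, a feedback inhibitor of cytokine receptors, read 8.61 and 8.41 in the TAK1-deleted arrays, against 9.73 and 9.51 in the wild type arrays (-1.11 ± 0.16, adjusted p = 8.8e-04), and the kinase Jak2 read 10.22 and 10.10 in the TAK1-deleted arrays, against 10.91 and 10.74 in the wild type arrays (-0.66 ± 0.15, adjusted p = 0.027). Stat3 and Pim1 complete the called members. Of 15 interleukin and interferon receptors, 4 were lower and 1 higher, against 1.70% and 1.00% of all genes. With the block 6 were lower and 1 higher, against 4.50% and 3.82%. The IL-2 receptor α chain Il2ra read 11.91 and 11.38 in the TAK1-deleted arrays, against 12.91 and 12.69 in the wild type arrays, a difference of -1.16 ± 0.25 (2.23-fold lower, adjusted p = 0.017) after rises of 2.89 in TAK1-deleted cells and 3.69 in wild type cells. Il2rb (-1.20 ± 0.26) and the IL-5 receptor chain Il5ra (-1.17 ± 0.23) were lower, and Il9r was higher (0.80 ± 0.14). Il2rb was also lower at 0 h (-1.09 ± 0.26, adjusted p = 0.039) and is expressed by NK and T cells, whose markers moved the same way, and their part in it was not tested.

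Of the 5 JAK-STAT calls, 3 without TAK1-deleted replicate 1, 3 without TAK1-deleted replicate 2, 3 without wild type replicate 1 and 3 without wild type replicate 2 held. Of the 4 interleukin receptors called lower, 4 without TAK1-deleted replicate 1, 0 without TAK1-deleted replicate 2, 0 without wild type replicate 1 and 1 without wild type replicate 2 kept the call. The call was lost for Jak2 without TAK1-deleted replicate 1 (adjusted p = 0.074) and Jak2, Il2ra, Il2rb and Il5ra without TAK1-deleted replicate 2 (adjusted p = 0.082 to 0.25). It was also lost for Jak2, Il2ra, Il2rb, Il5ra and Il9r without wild type replicate 1 (adjusted p = 0.057 to 0.26) and Jak2, Il2ra and Il2rb without wild type replicate 2 (adjusted p = 0.068 to 0.12).

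Surface molecules of activation and costimulation were also examined. The shares over all genes were 1.70% lower and 1.00% higher, and 4.50% and 3.82% with the block. Of 13 activation markers tested, 5 were lower in TAK1-deleted cells and 0 higher (6 lower with the block): Slamf1, Icam1, Il2ra, the hyaluronan receptor Cd44 and Cd69. Slamf1, a costimulatory receptor, read 7.52 and 7.01 in the TAK1-deleted arrays, against 9.02 and 8.77 in the wild type arrays (-1.63 ± 0.22, 3.09-fold lower, adjusted p = 5.6e-04). Cd44 read 9.83 and 9.75 in the TAK1-deleted arrays, against 10.77 and 10.46 in the wild type arrays (-0.83 ± 0.15, adjusted p = 0.0042). The early activation marker Cd69 read 12.46 and 12.27 in the TAK1-deleted arrays, against 13.13 and 12.90 in the wild type arrays (-0.65 ± 0.15, adjusted p = 0.028), with rises over 3 h of 1.97 in TAK1-deleted cells and 2.36 in wild type cells. Of 14 TNF receptors, 5 were lower and 0 higher, with a median of -0.49, and 8 were lower and 1 higher with the replicate block. Tnfrsf13b encodes TACI, a receptor for the survival factors BAFF and APRIL, and read 9.66 and 9.12 in the TAK1-deleted arrays, against 10.65 and 10.60 in the wild type arrays (-1.24 ± 0.17, adjusted p = 6.5e-04). Fas, Tnfrsf9, which encodes 4-1BB (-0.78 ± 0.15), Tnfrsf4, which encodes OX40 (-0.53 ± 0.11), and Cd40, the receptor for T cell help (-0.52 ± 0.10), were the other 4. The inhibitory receptors Ctla4 (-1.01 ± 0.17) and Pdcd1 (-0.82 ± 0.13) were the 2 of 15 inhibitors of B cell receptor signalling that were lower (with the block 2 others were higher), and both are also made by T cells, whose part was not tested. Of the 5 activation markers, 4 without TAK1-deleted replicate 1, 3 without TAK1-deleted replicate 2, 2 without wild type replicate 1 and 3 without wild type replicate 2 kept the call, and of the 5 TNF receptors, 2 without TAK1-deleted replicate 1, 3 without TAK1-deleted replicate 2, 2 without wild type replicate 1 and 1 without wild type replicate 2. Calls were lost for Cd69, Fas, Tnfrsf4 and Cd40 without TAK1-deleted replicate 1 (adjusted p = 0.054 to 0.12) and Cd69, Tnfrsf9 and Tnfrsf4 without TAK1-deleted replicate 2 (adjusted p = 0.11 to 0.23). They were lost as well for Cd44, Cd69, Fas, Tnfrsf4 and Cd40 without wild type replicate 1 (adjusted p = 0.076 to 0.3) and Cd69, Fas, Tnfrsf9, Tnfrsf4 and Cd40 without wild type replicate 2 (adjusted p = 0.052 to 0.12).

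Other genes induced in wild type cells were chosen after their values were seen. Mir155, the gene of a microRNA of activated B cells, read 9.82 and 10.46 in the TAK1-deleted arrays, against 11.60 and 11.49 in the wild type arrays (-1.41 ± 0.28, adjusted p = 0.01), with rises of 2.80 in TAK1-deleted cells and 4.26 in wild type cells. Its probe set is annotated to the precursor, and the array does not measure the mature form, which RefSeq (GRCm38.p6) gives as follows, 5′ to 3′ with the seed (bases 2 to 8) in capitals.
mmu-miR-155-5p: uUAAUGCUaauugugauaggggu
Lrrc32, which encodes GARP, a surface anchor of latent TGF-β, read 10.86 and 10.13 in the TAK1-deleted arrays, against 12.15 and 11.91 in the wild type arrays (-1.53 ± 0.26, adjusted p = 0.0036), with rises of 2.28 in TAK1-deleted cells and 4.06 in wild type cells. The cytokine gene Il4 read 7.09 and 6.97 in the TAK1-deleted arrays, against 8.45 and 8.31 in the wild type arrays (-1.35 ± 0.19, adjusted p = 7.8e-04) and the costimulator Icos 8.51 and 8.09 in the TAK1-deleted arrays, against 9.55 and 9.40 in the wild type arrays (-1.18 ± 0.19, adjusted p = 0.0023). Both are T cell genes too, and the part of T cells in them was not tested. At 0 h their differences were -0.31 ± 0.19 and -0.16 ± 0.19, neither called, and 5 of 14 T cell markers were called lower. Leaving out an array ended the call for Mir155 without TAK1-deleted replicate 1 (adjusted p = 0.13) and Lrrc32 without TAK1-deleted replicate 2 (adjusted p = 0.062). The same held for Mir155 and Lrrc32 without wild type replicate 1 (adjusted p = 0.055 to 0.1) and Mir155 without wild type replicate 2 (adjusted p = 0.059).

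TAK1 also feeds JNK and p38, so lists of early response genes were counted too. They are not separate from NF-κB, as Junb and Ier3 stand on the list of NF-κB targets as well. Of 12 Fos, Jun and Maf genes tested, 1 was lower, Batf, an AP-1 factor of class switching that lacks a transactivation domain (2 were lower with the block). Batf read 8.10 and 8.23 in the TAK1-deleted arrays, against 9.43 and 9.59 in the wild type arrays (-1.35 ± 0.16, 2.54-fold lower, adjusted p = 1.2e-04) and rose over 3 h in wild type cells by 1.26, while its change in TAK1-deleted cells, 0.30, was not called. Fos (-0.11 ± 0.17) and Jun (-0.16 ± 0.22) were not called. Of 20 Egr, Nr4a and other immediate early genes, 2 were higher in TAK1-deleted cells and 0 lower (4 higher and 1 lower with the block), and the median was 0.03. The shares over all genes were 1.00% higher and 1.70% lower, and 3.82% and 4.50% with the block. The polo-like kinase Plk2 read 10.74 and 10.51 in the TAK1-deleted arrays, against 9.86 and 9.47 in the wild type arrays (0.96 ± 0.20, adjusted p = 0.011), after rises of 4.67 in TAK1-deleted cells and 3.42 in wild type cells. Id3, an inhibitor of E proteins, read 8.34 and 7.91 in the TAK1-deleted arrays, against 7.50 and 7.53 in the wild type arrays (0.61 ± 0.15, adjusted p = 0.032). Egr1 read 10.96 and 10.39 in the TAK1-deleted arrays, against 11.18 and 10.89 in the wild type arrays (-0.36 ± 0.19, adjusted p = 0.64). None of 13 MAP kinase components and none of 14 MAP kinase phosphatases and Sprouty genes was called, though with the block 1 component was lower, and of the phosphatases and Sprouty genes 1 was higher and 5 were lower. The repressor Bcl6, the master factor of germinal centre B cells, was lower (-0.91 ± 0.19, adjusted p = 0.016). The call was lost for Plk2 and Id3 without TAK1-deleted replicate 1 (adjusted p = 0.11 to 0.39) and Bcl6 without TAK1-deleted replicate 2 (adjusted p = 0.23). It was also lost for Id3 and Bcl6 without wild type replicate 1 (adjusted p = 0.18 to 0.21) and Plk2, Id3 and Bcl6 without wild type replicate 2 (adjusted p = 0.057 to 0.18).

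Few genes of the B cell receptor were called. Of 19 genes of its proximal signalling, 1 was higher and 1 lower (3 higher and 2 lower with the block), against 1.00% and 1.70% of all genes. The kinase Btk was higher (0.61 ± 0.13, adjusted p = 0.016) and Ighm, the μ heavy chain, lower (-0.83 ± 0.18, adjusted p = 0.018). Ighm shares sequence with other immunoglobulin genes, so its value is uncertain. Cd79a, the receptor's signalling chain, read 12.68 and 12.21 in the TAK1-deleted arrays, against 13.02 and 12.73 in the wild type arrays (-0.43 ± 0.17, adjusted p = 0.3; adjusted p = 0.028 with the block). Of 10 marginal zone markers, the complement receptor Cr2 (-0.98 ± 0.15, adjusted p = 0.0016) and Cd9 (-0.72 ± 0.15, adjusted p = 0.016) were lower and 0 were higher (3 lower and 1 higher with the block). Cr2 was not called at 0 h (-0.08 ± 0.15) and fell over 3 h in both genotypes, with changes of -1.70 in TAK1-deleted cells and -0.80 in wild type cells. Of 6 markers of transitional B cells, Cd93 was higher (0.86 ± 0.14, adjusted p = 0.0022), and 2 were with the block. None of 4 follicular markers was called, and 2 were lower with the block. Of 10 markers of B-1 cells, 4 were lower (median -0.41): Tbx21, Zbtb32, Plscr1 and Ctla4. Tbx21, which encodes T-bet, read 8.54 and 8.29 in the TAK1-deleted arrays, against 10.18 and 10.21 in the wild type arrays (-1.78 ± 0.12, 3.43-fold lower, adjusted p = 5.5e-07), and Zbtb32 8.07 and 8.11 in the TAK1-deleted arrays, against 9.86 and 9.09 in the wild type arrays (-1.39 ± 0.19, adjusted p = 6.5e-04). Tbx21 was lower at 0 h too (-0.91 ± 0.12) and is expressed by NK and T cells, whose part was not tested. B-1 cells, plasma cells, T cells and NK cells are among the cells that bear CD43, which the purification targets, and its part in these differences was not tested. Calls were lost for Btk without TAK1-deleted replicate 1 (adjusted p = 0.062) and Btk, Ighm and Cd9 without TAK1-deleted replicate 2 (adjusted p = 0.12 to 0.25). They were lost as well for Btk, Ighm and Cd9 without wild type replicate 1 (adjusted p = 0.057 to 0.24) and Ighm and Cd9 without wild type replicate 2 (adjusted p = 0.18).

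Growth genes were induced in both genotypes. All 31 genes of ribosome biogenesis rose over 3 h in TAK1-deleted cells and all 31 in wild type cells (against 19.6% and 20.9% of all genes), and none was called between the genotypes at 3 h (median -0.12). Of 22 genes for amino acid uptake and for making serine, 19 rose in each genotype and none was called between them (median -0.02; 1 lower with the block). The glucose transporter Slc2a1 was higher in TAK1-deleted cells (0.69 ± 0.12, adjusted p = 0.0044), the 1 call among 16 genes counted for the glycolysis list. The list member Gpi1 was matched by a synonym to Pigq, so Gpi1 itself was not tested. Of 17 G1 cyclins and regulators, Ccnd2 was the 1 called, and with the block 2 others were higher. No G1/S gene of 31 was called (3 were higher with the block). Of 25 G2/M genes 1 was higher, the proliferation marker Mki67 (0.64 ± 0.13, adjusted p = 0.011), with 3 higher with the block. Their medians were 0.19 and 0.20 at 3 h, against 0.39 and 0.58 at 0 h, where 5 and 8 members were called higher (1.50% of all genes). Among 11 heat shock genes, 2 were lower, against 1.70% of all genes, and 4 with the block, against 4.50%. The small heat shock protein Hspb1 read 11.15 and 9.87 in the TAK1-deleted arrays, against 12.73 and 12.06 in the wild type arrays (-1.89 ± 0.35, adjusted p = 0.0067), the TAK1-deleted arrays lying more than 1 apart from each other, and Hsph1 was lower by 0.55. Of 23 interferon response genes, Ifit1 was lower (-0.77 ± 0.15, adjusted p = 0.011), with 2 lower and 1 higher with the block. No gene of the Myc network, cholesterol synthesis or the unfolded protein response was called, and with the block 1 of each list was lower. Leaving out an array ended the call for Slc2a1 and Mki67 without TAK1-deleted replicate 1 (adjusted p = 0.06 to 0.061) and Mki67, Hspb1, Hsph1 and Ifit1 without TAK1-deleted replicate 2 (adjusted p = 0.074 to 0.18). The same held for Mki67, Hspb1, Hsph1 and Ifit1 without wild type replicate 1 (adjusted p = 0.12 to 0.19) and Slc2a1, Mki67 and Hsph1 without wild type replicate 2 (adjusted p = 0.052 to 0.071).

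Several of the largest differences at 3 h were present before stimulation. Jchain, the joining chain of secreted IgM and IgA, read 6.46 and 6.41 in the TAK1-deleted arrays, against 11.38 and 11.47 in the wild type arrays (-4.99 ± 0.14, adjusted p = 3.6e-12), and at 0 h the difference was -5.31 ± 0.14. BC018473 read 10.72 and 10.36 in the TAK1-deleted arrays, against 6.56 and 6.44 in the wild type arrays (4.05 ± 0.17), with 4.83 ± 0.17 at 0 h. The protease cathepsin E, Ctse, read 12.45 and 11.91 in the TAK1-deleted arrays, against 9.54 and 9.34 in the wild type arrays (2.74 ± 0.19), with 3.10 ± 0.19 at 0 h. Of the 12 largest differences upwards, Rhag, Car1, Car2 and Slc4a1 are erythroid markers on the list, and all 12 were called higher at 0 h as well. The 12 largest downwards include the Y-linked genes and Jchain, Hgsnat, a lysosomal acetyltransferase (-1.66 ± 0.19; -1.25 ± 0.19 at 0 h), Sytl3, a vesicle trafficking protein (-1.80 ± 0.18; -0.61 ± 0.18 at 0 h), and Igkv8-30 (-1.81 ± 0.35), a variable gene segment whose probes can read its near-identical copies. Igha was lower too (-0.76 ± 0.14), with the same uncertainty.

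**Figure D4:**
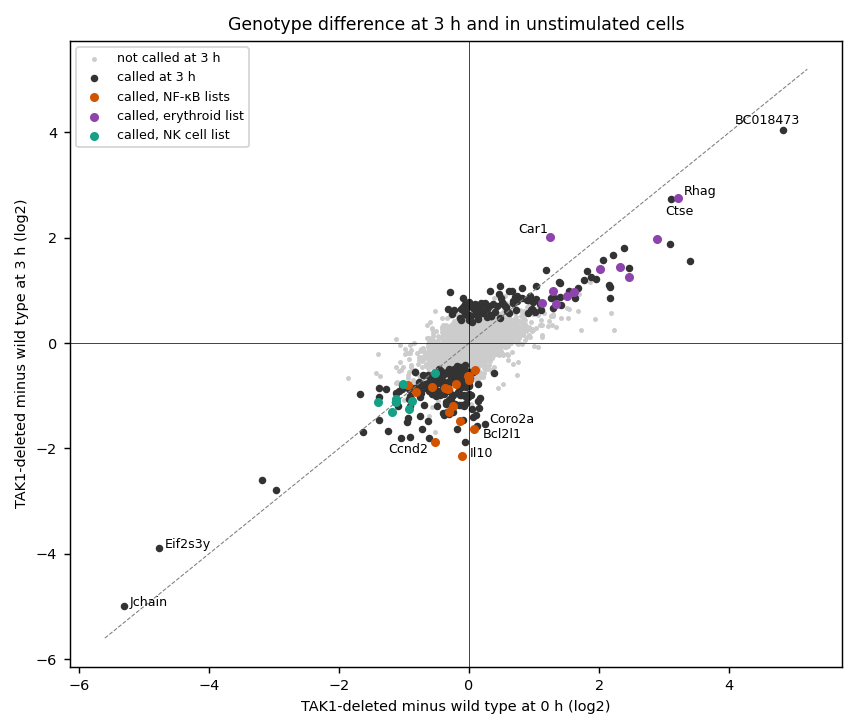
Each point is 1 of 11968 genes, with the TAK1-deleted minus wild type difference at 0 h (horizontal axis, log2) and at 3 h (vertical axis, log2), which share no arrays. The dashed line marks equal differences. Jchain (-5.31 at 0 h, -4.99 at 3 h) lies near it. BC018473 (4.83 and 4.05) and the median of the erythroid list (1.54 and 0.98) lie above 0 at both times and were smaller at 3 h. Il10 (-0.11 and -2.14) and Bcl2l1 (0.08 and -1.63) lie near 0 at 0 h and below it at 3 h.

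The difference at 3 h was tested against that at 0 h by setting the change from 0 h in TAK1-deleted cells against that in wild type cells. This test called 7 genes (0.0585%), all with a negative value, the change in TAK1-deleted cells lying below that in wild type cells. They were Il10 (-2.04 ± 0.33), Bcl2l1 (-1.72 ± 0.18), the actin-binding coronin Coro2a (-1.68 ± 0.19), Jhy (-1.61 ± 0.21), Pkib, an inhibitor of protein kinase A (-1.46 ± 0.21), Tnfaip3 (-1.33 ± 0.22) and Icam1 (-0.96 ± 0.16). An unadjusted p below 0.05 was found for 597 genes (4.99%). This fit does not use the pairing by replicate number, so how many genes differ cannot be read from that share. Jhy was named after its value was seen. Coro2a read 9.85 and 9.52 in the TAK1-deleted arrays, against 11.34 and 11.15 in the wild type arrays (adjusted p = 0.0012 for the change), and over 3 h it fell by 1.19 in TAK1-deleted cells and rose by 0.49 in wild type cells. Bcl2l1 changed by 0.74 in TAK1-deleted cells and 2.45 in wild type cells (adjusted p = 0.0011). Jhy differed from the others in that its genotype difference was 2.18 ± 0.15 at 0 h and 0.57 ± 0.15 at 3 h, with no call at 3 h. For Bcl2l1, Coro2a and Jhy the call held with each of the 8 arrays left out in turn. Pkib lost it without wild type 0 h replicate 2 (adjusted p = 0.11) and without wild type 3 h replicate 1 (0.095). Il10, Tnfaip3 and Icam1 each lost it without at least 6 of the 8 arrays, with adjusted p up to 0.16, 0.23 and 0.21. With the replicate block 233 genes were called (1.95%), 67 positive and 166 negative, among them Ccnd2 (-1.35 ± 0.24; adjusted p = 0.053 without the block and 1.9e-04 with it) and Cish (-1.25 ± 0.22; 0.053 and 8.6e-04). Fitted on its own arrays alone the test called 0.

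**Figure D5:**
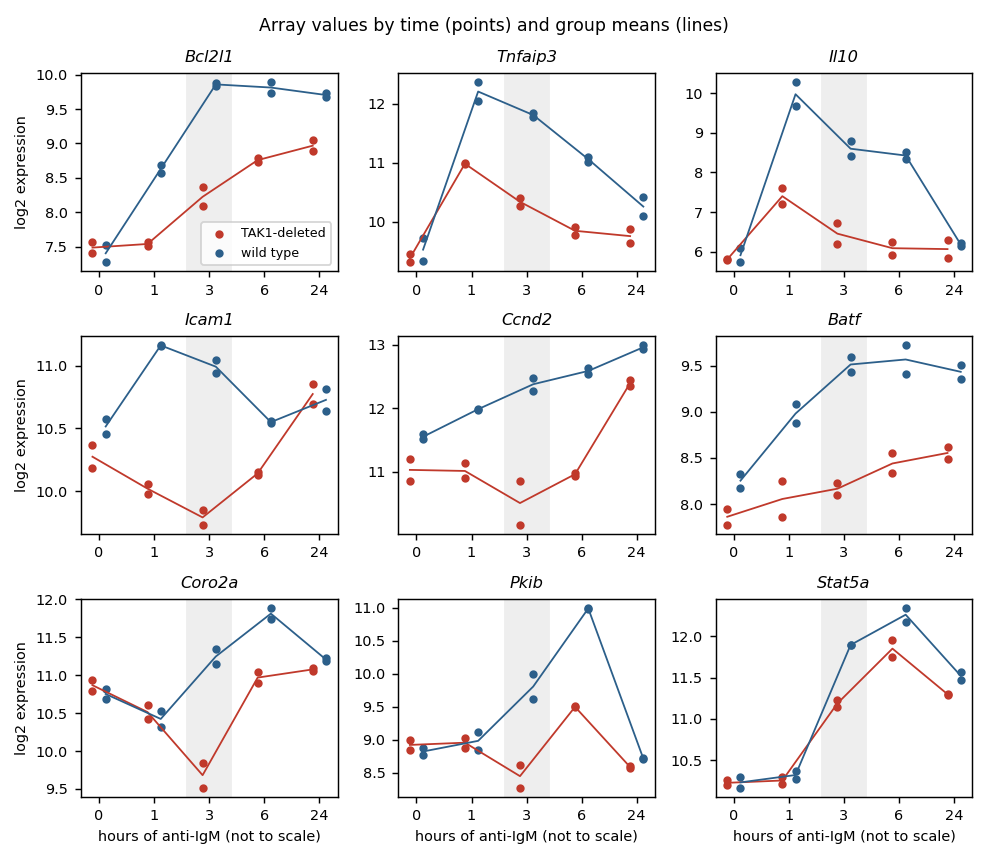
Log2 expression of 9 genes in each array (points) and the group means (lines) by hours of anti-IgM, TAK1-deleted left of wild type at each time and 3 h shaded. The genes were chosen among those lower at 3 h, so there both TAK1-deleted arrays lie below both wild type arrays in all 9 panels. Of all genes, 14.9% lie so. Coro2a, for example, read 9.85 and 9.52 against 11.34 and 11.15.

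Set against the neighbouring times, some of the calls at 3 h were shared with 0 h and some were not. A missing call does not show a missing difference: Ccnd2, not called at 0 h, differed there by -0.52 ± 0.17. Of the 204 genes lower at 3 h, 46 were also lower at 0 h, which is 22.5% of the 3 h genes and 46.9% of the 0 h genes (0.819% of all genes were lower at 0 h). With the 1 h genes 109 were shared, 53.4% and 41.3% of the lists (2.21% of all genes were lower at 1 h). With the 6 h genes 116 were shared, 56.9% and 60.4% of the lists (1.60% were lower at 6 h). Of the 120 higher genes, 61 were higher at 0 h, 50.8% of the 3 h genes and 33.9% of the 0 h genes (1.50% of all genes). At 1 h 61 were higher, 50.8% and 24.6% of the lists (2.07% of all genes), and at 6 h 58, 48.3% and 52.3% (0.927% of all genes). At 24 h, when 5.17% of all genes were lower and 7.03% higher, 33 of the 204 were lower and 36 higher. Of the 204, 158 were not called at 0 h, and 91 neither at 0 h nor at 1 h. A further 38, Bcl2l1, Tnfaip3, Il10 and Ccnd2 among them, were not called at 0 h and were lower at both 1 h and 6 h.

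The difference at 3 h was then tested against that at 1 h, which called 12 genes (0.100%), 7 positive and 5 negative. Coro2a, Axl, a receptor tyrosine kinase, and Pkib had the most negative values. Their differences were 0.09, 0.25 and -0.03 at 1 h and -1.57, -1.26 and -1.36 at 3 h, changes of -1.66 ± 0.19, -1.51 ± 0.24 and -1.33 ± 0.21. Axl read 8.46 and 7.99 in the TAK1-deleted arrays, against 9.47 and 9.50 in the wild type arrays. The most positive values were those of Hspa1l, a chaperone of the HSP70 family (2.26 ± 0.22, adjusted p = 3.2e-04), 1810046K07Rik (1.74 ± 0.29) and Bag3, a co-chaperone (1.43 ± 0.21), whose differences of -2.34, -2.61 and -1.73 at 1 h were -0.08, -0.87 and -0.30 at 3 h. Id3 was lower at 1 h (-0.78) and higher at 3 h (0.61), a change of 1.39 ± 0.21. The calls of Coro2a and Hspa1l held with each of 8 arrays left out in turn. The other 10 each lost theirs without at least 4 of the 8, with adjusted p of at most 0.2. With the block 241 genes were called (2.01%). Against 6 h, 0 genes were called by limma (smallest adjusted p = 0.404), 268 had an unadjusted p below 0.05 (2.24%), and 30 were called with the block (0.251%).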

How the data were processed

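Total RNA of 20 samples was hybridised to Affymetrix Mouse Gene ST arrays. The authors made the deposited log2 values by RMA, and the submitters' processing notes name Affymetrix Expression Console 1.0. Genome build and probe set annotation: not given in the sources used here. Nothing was renormalized. The 35556 probe sets run from 3.64 to 14.68, and the median of an array from 7.37 to 7.52. RMA leaves background in dim probe sets, so folds against a dim group can be understated. The number of arrays limits the precision, with a median standard error of 0.161 for a genotype difference.

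Probe sets with 1 symbol in the platform annotation (21789; 21698 matched to the gene table by ID, with 0 symbols changed) entered if 2 or more arrays reached 7.45, the overall median. The brightest probe set of a gene was used (678 genes had several), which left 11968 genes. Probe sets with several symbols (1621) or not listed (12146) were left out. Group means of all 20 arrays entered 1 limma model (version 3.58.1, R 4.3.3; lmFit, then contrasts.fit, then eBayes with its trend option on; 10 residual and 5.47 prior degrees of freedom), two-sided. Tables and plots were made with Python 3.11.15, pandas 2.3.3 and matplotlib 3.10.9. The fit was tested on simulated data with 200 changed genes and noise independent between arrays.

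The replicate numbers (1 and 2) are those of the labels' sample descriptions. Deviations of same-numbered arrays from their group means correlated in all 45 pairs of groups (r of 0.191 to 0.769 across genes, 0.636 between both 3 h groups), so the numbers were taken to pair the samples, and the count with the number as a block is given beside each list described whose count it changes. The main fit holds no block, so its calls, its standard errors and the fits without 1 array do not use this pairing. In the fits without 1 array a shift shared by same-numbered arrays can enter the difference.

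The 46 gene lists hold 710 symbols, 654 with a probe set and 640 tested. The comparison, lists and members were chosen with earlier results of these data known. Lists were counted and not tested. Named genes are the 12 largest called differences each way, up to 4 called members a list, both NF-κB lists whole, the 3 largest each way in each test of a difference, and the genes Map3k7, Nfkbia, Tnfaip3, Rel, Bcl2l1, Fas, Il10, Myc, Egr1, Fos, Jun, Ccnd2, Cd69, Cd83, Cd86, Irf4, Ighm, Cd79a and Jchain. Alternatives were the block, the arrays in the fit, the filter, the trend, the normalization between arrays, the choice of probe set and leaving out each array.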

Additional observations from a re-analysis of the deposited data

Results flagged for a closer look

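Differences between the genotypes that themselves differed between time points by a test were singled out. Between 0 h and 3 h these were 7 genes: Il10 (-2.04), Bcl2l1 (-1.72), Coro2a (-1.68), Jhy (-1.61), Pkib (-1.46), Tnfaip3 (-1.33) and Icam1 (-0.96), each the TAK1-deleted minus wild type difference in the log2 change from 0 h. Between 1 h and 3 h they were 12 genes, and of those named by the rule Coro2a (-1.66), Axl (-1.51) and Pkib (-1.33) moved downwards and Id3 (1.39), Bag3 (1.43), 1810046K07Rik (1.74) and Hspa1l (2.26) upwards. Coro2a and Pkib were called in both tests, which share the 3 h arrays. The groups of 2 arrays were too small to look for single arrays that stand apart.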

How the results depend on the processing

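The genotype difference at 3 h called 324 genes, and 995 with the replicate block, 582 after quantile normalization and 46 with the 4 arrays fitted alone; without 1 array it called 134 to 227. The test against 0 h called 7 genes, and 233 with the block, 78 after quantile normalization, 11 with the filter at the 60th percentile, 4 with arrays centred on their median, 0 on its own arrays alone, and 3 to 13 without 1 array. The test against 1 h called 12, and 241 with the block, 75 after quantile normalization, 0 on its own arrays alone, and 2 to 14 without 1 array. The test against 6 h called 0, and 30 with the block. The cause of these changes was not tested, except that fits on fewer arrays have fewer degrees of freedom and the block changes errors only. The other settings (no trend, no filter, the mean of a gene's probe sets, and for the remaining tests the stricter filter and centring) kept each count within 1.5 times. Of 97 named genes called at 3 h, 97 were called with the block, 82 with centred arrays, 90 with no filter, 31 with the 4 arrays alone and 56 to 75 without 1 array; 9 of 40 uncalled ones were called with the block, which changed no other call at 3 h, and 0 reversed direction. The median difference over all genes stayed between -0.021 and 0.059 in every setting.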
